A study of Mus musculus with 6 samples.

Results

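Genes of the proteasome were examined in mouse megakaryocytes, the cells that shed platelets, cultured from E13.5 fetal livers. One group lacked p45, which with a small Maf protein forms the transcription factor NF-E2. The genes were chosen by symbol, as those beginning with Psma, Psmb, Psmc, Psmd, Psme or Psmg, together with Pomp. By this rule 50 genes were on the array, and 49 of the 18211 genes tested belonged to them. All 49 were well above background on all 6 arrays. Of these, 47 encode proteasome subunits, activators or assembly factors, and the other two, Psmc3ip and Psme3ip1, encode proteins named for binding a proteasome protein. The gene outside the test was Psmb11, the thymus-specific beta subunit, whose pair of probes was above background on 1 WT array at most and on 0 p45-/- arrays.

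The p45-/- group held 3 cultures and the WT group 3, all on the C57BL/6 background, and the series' design calls them independent experiments. The labels give the genotype as p45-/- or WT with no allele, and do not say whether fetal livers were pooled. The source label gives cultured megakaryocytes while the extraction label names whole embryos, a contradiction that was not resolved. Each total RNA was labelled with Cy3 and read on 1 single-colour array. In the text a level is the log2 processed signal minus the 75th percentile of that array, and a difference is p45-/- minus WT on that scale.

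The arrays were not equal. Their 75th percentile lay between 135 and 589 in signal units, lowest on p45-/- array 1, and 57.8% to 64.8% of probes were well above background. Across genes, p45-/- array 1 correlated with the other arrays at 0.782 to 0.884. Where the median difference of a gene list is given, it is therefore also given without that array. All 14 megakaryocyte markers tested were well above background on every array. Of these 12 had a lower mean in p45-/-, with a median difference of -0.48, or 0.018 without p45-/- array 1. The collagen receptor Gp6 differed by -6.09 (SE 0.92) and the platelet receptor Clec1b by -4.53 (SE 0.76), with limma adjusted p of 0.288 and 0.331, and 0.0167 and 0.0454 with the replicate number as a block. Pf4, the platelet chemokine, differed by 0.082 (SE 0.29). Nfe2, which encodes p45, was at 4.87, 6.43 and 6.34 on p45-/- arrays 1, 2 and 3 and at 5.24, 6.57 and 6.33 on the WT arrays. The difference was -0.17 (SE 0.57, limma adjusted p = 0.923), and it turned to 0.34 without p45-/- array 1. Whether its probe lies within the deleted stretch could not be told, and the genotype labels were not checked by it.

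The proteasome degrades proteins tagged with ubiquitin. Its barrel-shaped core has outer rings of alpha subunits and inner rings of beta subunits, of which Psmb5, Psmb6 and Psmb7 carry the cutting sites. A cap of ATPase and non-ATPase subunits opens the core and feeds in the substrate. Interferon induces Psmb8, Psmb9 and Psmb10, which replace the constitutive cutting subunits in the immunoproteasome and change the peptides made for antigen presentation. NF-E2 p45 has a relative, Nfe2l1 (Nrf1), that raises proteasome genes through antioxidant response elements when proteasome activity is short. Proteasome activity is also known to be needed by megakaryocytes to form platelets.

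Most proteasome genes were lower in group mean in the p45-/- cultures, though the groups overlapped for the majority of them, and none passed the test. Of the 49 genes 47 had a negative difference, 95.9%, against 53.5% of all genes tested. The median difference was -0.32, against -0.048 over all genes. With limma 0 of the 49 passed an adjusted p of 0.05 in either direction, as did 0 of all genes (0% called), and their adjusted p lay between 0.704 and 0.970. At an unadjusted p under 0.05 limma had 1 lower member, Psmd11, and 0 higher members, against 3.33% of all genes lower and 2.62% higher. With the replicate number as a block 0 members passed, with a smallest adjusted p of 0.209, while 0.0275% of all genes passed as lower and 0% as higher. At an unadjusted p under 0.05 the blocked limma fit had the same 1 lower member and 0 higher, against 5.96% of all genes lower and 14.3% higher.

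A single array carried much of this shift, but less of it when the members were set against all genes. The members' median minus the median over all genes was -0.28 with all arrays and -0.14 without p45-/- array 1. The level on p45-/- array 1 was the lowest of the 6 for 45 of the 49 genes, 91.8%, against 47.3% of all genes. Set against each gene's WT mean, the median over the 49 genes was -0.86 on p45-/- array 1, -0.058 on array 2 and -0.080 on array 3, and -0.10, 0.079 and 0.016 on WT arrays 1, 2 and 3. The same medians over all genes were -0.37, 0.098 and 0.047 in p45-/- and 0.060, -0.024 and -0.013 in WT. So the proteasome genes lay below WT on p45-/- array 1. On p45-/- arrays 2 and 3 they lay close to WT, while the medians over all genes lay slightly above WT.

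Leaving out p45-/- array 1 moved the members' median difference to -0.075 with 31 of 49 lower, against a median of 0.069 over all genes and 42.9% lower. Without replicate 1 of both groups the members' median was -0.14 with 37 of 49 lower, against 0.087 over all genes and 41.6% lower. Quantile normalization, which gives every array the same distribution, moved it to -0.050 with 32 of 49 lower, against 52.1% of all genes. Background correction with normexp moved it the other way, to -0.54, against 0.081 over all genes. On slide 2, which held replicates 1 and 2 of both groups, the members' median was -0.47, against -0.13 over all genes. On slide 1, with 1 array per group, it was -0.11, against 0.064 over all genes. For 24 of the 49 genes p45-/- lay below WT in all 3 same-numbered pairs, 49%, against 23.6% of all genes, and for 0 it lay above in all 3 pairs (background 23.3%). The groups did not overlap for 10 genes, all lower, 20.4%, against 8.43% of all genes lower and 4.77% higher. In cultures measured in bulk, less proteasome RNA per cell and a changed mix of cells cannot be told apart. With 1 array per culture, neither can a culture and its array.

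The intervals show what 3 arrays per group could resolve. The standard error of a difference had a median of 0.33 over the 49 genes (0.27 to 0.56). The 95% interval excluded a 2-fold higher level in p45-/- for all 49 genes and a 2-fold lower level for 7 of them. Without p45-/- array 1 the median standard error was 0.21 and the interval excluded a 2-fold lower level for 40 of 49 genes. Within groups the SD of a gene's level had a median of 0.45 in p45-/- and 0.15 in WT.

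**Figure D1:**
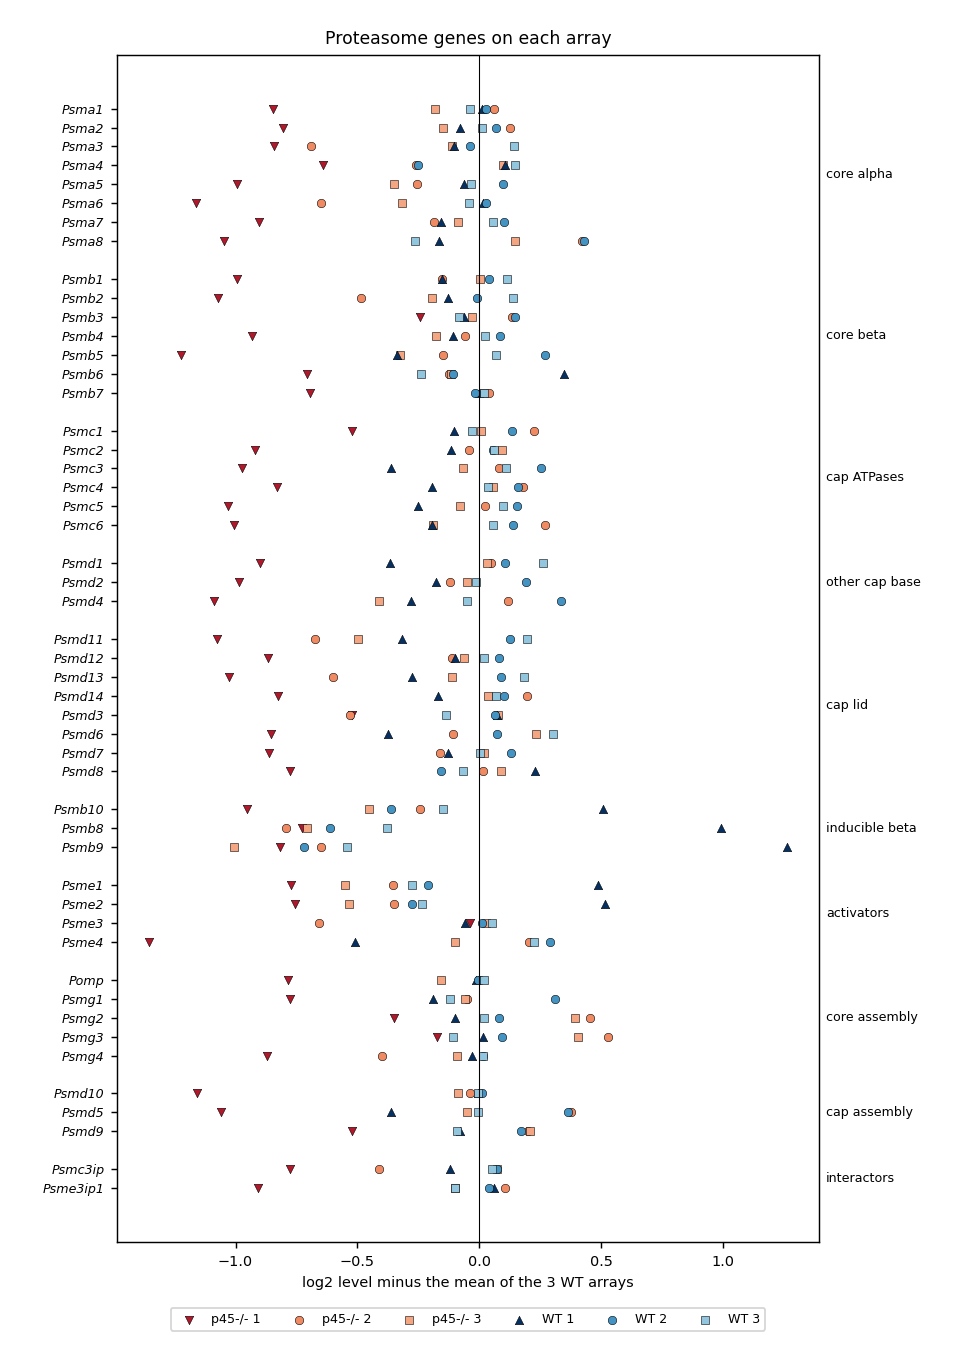
Log2 level of each of the 49 proteasome genes on each array, minus the mean of that gene's 3 WT arrays, with genes grouped by role and 1 symbol per array. The dark red triangles of p45-/- array 1 are the lowest point for 45 of 49 genes, and the dark blue triangles of WT array 1 stand to the right for Psmb8, Psmb9, Psmb10, Psme1 and Psme2.

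**Figure D2:**
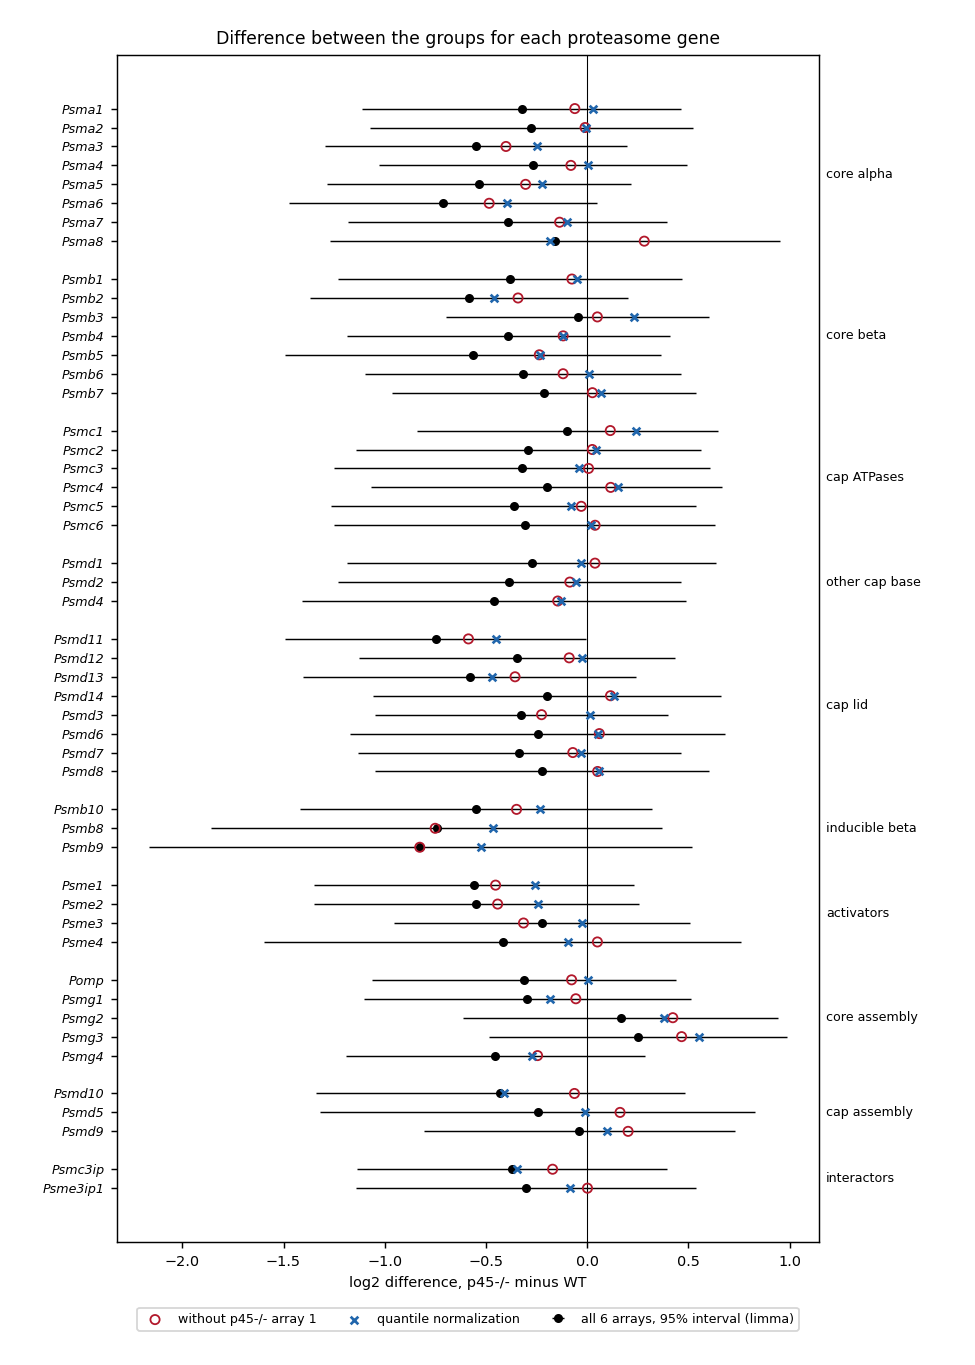
Difference p45-/- minus WT of each gene on the log2 scale with its 95% interval (black, limma, 3 arrays per group), the difference without p45-/- array 1 (open red circles) and with quantile normalization (blue crosses). All black points but those of Psmg2 and Psmg3 lie below 0, and only the interval of Psmd11 does not reach 0.

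Promoters were searched because NF-E2, its relatives and interferon-driven factors are known to bind defined motifs. RefSeq windows from 250 bases before to 50 bases after the start (build GRCm38.p6) were matched by symbol for 42 of the 50 genes on the array and searched on both strands. The antioxidant response element core, TGACNNNGC, was in the windows of 6 of the 42 genes, 14.3%, against 14.0% of 27025 genes with such windows. The NF-E2 site, TGC directly followed by TGAGTCA, was in 0 of 42, against 0.2% of all genes. The interferon-stimulated response element core, GAAA, any 2 bases and GAAA again, was in 5, 11.9%, against 4.0%. These were Psmb3, Psmd4, Psmd9, Psme1 and Psmg4, and it was in 0 of the 4 windows of Psmb8, Psmb9, Psmb10 and Psmb11. The gamma-activated site TTCNNNGAA, a palindrome, was in 3, 7.1%, against 9.6%, namely Psmb8, Psmd2 and Psmg1. The CCAAT box was in 16, 38.1%, against 41.1%. A gene can hold several of these motifs, and a match is a description of letters, not of binding. Shown first are the windows of 2 constitutive cutting subunits with the antioxidant core in capitals, Psmb5 at chr14:54617946-54618245 (minus strand, motif from position -47) and Psmb6 at chr11:70525107-70525406 (plus strand, motif from position -9). Psmb8 at chr17:34197945-34198244 (plus strand) follows with its gamma-activated site from position -97. Last is the proteasome activator gene Psme1 at chr14:55578244-55578543 (plus strand) with its interferon element from position 9, found on the opposite strand.
Psmb5: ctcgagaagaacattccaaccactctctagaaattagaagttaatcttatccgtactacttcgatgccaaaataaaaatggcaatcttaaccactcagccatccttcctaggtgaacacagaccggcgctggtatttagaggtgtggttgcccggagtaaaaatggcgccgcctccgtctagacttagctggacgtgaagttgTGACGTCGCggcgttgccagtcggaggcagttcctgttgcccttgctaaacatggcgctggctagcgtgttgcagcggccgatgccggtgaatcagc
Psmb6: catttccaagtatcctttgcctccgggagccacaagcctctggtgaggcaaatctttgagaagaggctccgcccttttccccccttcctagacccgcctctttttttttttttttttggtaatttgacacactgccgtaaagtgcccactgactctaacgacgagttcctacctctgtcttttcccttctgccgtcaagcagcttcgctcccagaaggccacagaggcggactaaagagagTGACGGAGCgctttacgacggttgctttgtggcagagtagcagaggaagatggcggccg
Psmb8: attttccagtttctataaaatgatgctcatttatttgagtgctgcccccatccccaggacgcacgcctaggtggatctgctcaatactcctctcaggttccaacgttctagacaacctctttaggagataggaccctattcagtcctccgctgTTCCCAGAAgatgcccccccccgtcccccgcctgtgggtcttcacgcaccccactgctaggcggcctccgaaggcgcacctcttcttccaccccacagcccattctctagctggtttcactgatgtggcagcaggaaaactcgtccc
Psme1: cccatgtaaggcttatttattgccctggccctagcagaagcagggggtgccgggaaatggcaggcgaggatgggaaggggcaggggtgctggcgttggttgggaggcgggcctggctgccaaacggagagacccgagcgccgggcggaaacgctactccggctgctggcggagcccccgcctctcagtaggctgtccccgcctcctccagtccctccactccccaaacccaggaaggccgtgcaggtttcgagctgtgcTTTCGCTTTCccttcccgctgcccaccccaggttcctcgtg

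The alpha rings form the gate of the core. Among their genes Psma6 had the difference farthest from 0. Psma6 was at 4.29, 4.81 and 5.14 on p45-/- arrays 1, 2 and 3 and at 5.47, 5.49 and 5.41 on the WT arrays. Every p45-/- array lay below every WT array, and the WT arrays agreed within 0.039 (SD, n = 3). The same-numbered pairs differed by -1.18, -0.68 and -0.27. The fitted difference had an SE of 0.32 and a 95% interval of -1.47 to 0.049, and its limma adjusted p was 0.704. The difference was -0.71, and it was -0.48 without p45-/- array 1 and -0.40 with quantile normalization. Psma3 (-0.55) and Psma5 (-0.53) also did not overlap between the groups, and without p45-/- array 1 they differed by -0.40 and -0.30. Psma8, the testis form that takes the place of Psma7, had the alpha difference closest to 0, at -0.16 (SE 0.46). Its levels were -0.46, 1.01 and 0.73 in p45-/- and 0.42, 1.02 and 0.32 in WT. The groups overlapped, and the difference turned to 0.28 without p45-/- array 1. Whether its probe also reads the related Psma7 was not tested. All 8 alpha genes had a lower mean in p45-/-, and their median difference was -0.36, or -0.11 without p45-/- array 1.

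All 7 constitutive beta genes had a lower mean in p45-/- (median difference -0.38). The median was -0.12 with 5 of 7 lower when p45-/- array 1 was left out. Psmb2, a non-cutting beta subunit, had the lowest difference. It was at 0.65, 1.23 and 1.52 in p45-/- and at 1.59, 1.71 and 1.86 in WT, so that the groups did not overlap. The difference was -0.58 (SE 0.33, limma adjusted p = 0.704), and -0.34 without p45-/- array 1. At the other end stood Psmb3, also non-cutting, with 5.97, 6.34 and 6.18 in p45-/- and 6.14, 6.36 and 6.13 in WT. Its difference was -0.047 (SE 0.27, 95% interval -0.70 to 0.60) and turned to 0.050 without p45-/- array 1 and to 0.23 with quantile normalization. Among the cutting subunits whose windows are printed above, Psmb5 differed by -0.56 (SE 0.39) and Psmb6 by -0.32 (SE 0.33). Psmb7, the other cutting subunit, differed by -0.21 (SE 0.31). These 3 differences were -0.24, -0.12 and 0.026 without p45-/- array 1.

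The cap's base holds 6 ATPases that unfold the substrate and thread it into the core. All 6 had a lower mean in p45-/- (median difference -0.30). Without p45-/- array 1 the median turned to 0.032 with 1 of 6 lower, and with quantile normalization to 0.032 with 2 of 6 lower. The medians over all genes in these settings were 0.069 and -0.026. Psmc5 was lowest in difference, with 2.86, 3.91 and 3.81 in p45-/- and 3.64, 4.04 and 3.99 in WT. Only p45-/- array 1 stood below all WT arrays. The difference was -0.36 (SE 0.38, limma adjusted p = 0.755), and -0.029 without p45-/- array 1. Psmc1 was at 4.53, 5.28 and 5.06 in p45-/- and at 4.95, 5.19 and 5.03 in WT, a difference of -0.098 (SE 0.31) that turned to 0.11 without p45-/- array 1. For 0 of the 6 ATPase genes did the groups stand apart.

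Of the other base subunits, Psmd4 is a receptor for ubiquitin chains and Psmd1 and Psmd2 are the large scaffold subunits. Psmd4 was at 3.73, 4.94 and 4.41 in p45-/- and at 4.54, 5.16 and 4.77 in WT, and the groups overlapped. It differed by -0.46 (SE 0.40, limma adjusted p = 0.722), and by -0.15 without p45-/- array 1. Psmd1 was at 1.95, 2.89 and 2.88 against 2.48, 2.95 and 3.11. Its difference of -0.27 (SE 0.38) turned to 0.039 without p45-/- array 1. Psmd2 differed by -0.39 (SE 0.35), and by -0.086 without that array, and these were also the medians over the 3 genes.

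The cap's lid, which removes the ubiquitin chain before the substrate enters, holds Psmd11, the member with the smallest p. Psmd11 was at 4.52, 4.92 and 5.10 in p45-/- and at 5.28, 5.72 and 5.79 in WT. Every p45-/- array lay below every WT array. The difference was of similar size in each same-numbered pair, at -0.76, -0.80 and -0.69. Psmd11 thus differed by -0.75 with an SE of 0.31 and a 95% interval of -1.49 to -0.0042, and its limma adjusted p was 0.704. When limma weighted the arrays, with 0.088 for p45-/- array 1, 0.334, 1.21 and 9.16 for WT arrays 1, 2 and 3, so that WT array 3 held most of the WT weight, it was called with an adjusted p of 0.0390, in a fit that also called 2.81% of all genes as lower and 3.61% as higher. With p45-/- array 1 left out instead, it differed by -0.59 with a limma adjusted p of 0.587. It was the only member called under any alternative tried, and over those alternatives its adjusted p ran from 0.0390 to 0.998. Psmd14, the enzyme that cuts off the chain, was at 3.92, 4.94 and 4.78 in p45-/- and 4.58, 4.85 and 4.81 in WT. Its difference of -0.20 (SE 0.36) was the lid's closest to 0 and turned to 0.12 without p45-/- array 1. Psmd13 differed by -0.58 and Psmd3 by -0.32, and without p45-/- array 1 they differed by -0.36 and -0.23. All 8 lid genes had a lower mean in p45-/- (median difference -0.33). Their median was -0.080 with 5 of 8 lower when p45-/- array 1 was left out. The 3 probes of Psmd12 disagreed in size, from -0.75 to -0.30.

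The inducible beta genes were set apart by WT array 1. Psmb8 was at 3.81, 3.75 and 3.83 in p45-/- and at 5.53, 3.93 and 4.16 in WT. The groups did not overlap, but WT array 1 lay far above the other WT arrays, which were close to p45-/-. The difference was -0.74 (SE 0.46, limma adjusted p = 0.704), and without WT array 1 it was -0.25. Psmb9 was at 3.84, 4.01 and 3.66 in p45-/- and at 5.92, 3.94 and 4.12 in WT. Its difference of -0.82 (SE 0.56) became -0.19 without WT array 1. Psmb10 was at 5.23, 5.94 and 5.73 against 6.69, 5.82 and 6.04, and its difference of -0.55 (SE 0.36) became -0.30. The median difference over the 3 inducible genes tested was -0.74, or -0.25 without WT array 1 and -0.75 without p45-/- array 1.

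The same array was highest for Psme1 and Psme2, the interferon-inducible subunits of the PA28 activator ring that binds the core in place of the cap. Psme1 was at 5.17, 5.59 and 5.39 in p45-/- and at 6.43, 5.73 and 5.67 in WT, with no overlap. Its difference was -0.56 (SE 0.33, limma adjusted p = 0.704) and -0.32 without WT array 1. Psme2 differed by -0.55 (SE 0.33) and by -0.29 without that array. The other activators did not show this. Psme3, the nuclear activator subunit, was at 1.44, 0.83 and 1.51 against 1.42, 1.49 and 1.53, with only p45-/- array 2 low. Its difference was -0.22 (SE 0.30). Psme4, another nuclear activator, differed by -0.42 (SE 0.49), which turned to 0.051 without p45-/- array 1. The median difference over the 4 activator genes tested was -0.48, or -0.38 without p45-/- array 1.

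WT array 1 was the highest of the 6 for 7 of the 49 members, 14.3%, against 17.5% of all genes. These 7 included all 5 inducible and PA28 genes and 2 of the 31 constitutive core and cap subunits (Psma8 is not counted among the 31). Interferon response genes were high on the same array, which was the highest for 19 of the 19 tested. The list held 20 genes, and the median of those tested over the WT mean was 1.25 on WT array 1, -0.86 and -0.35 on WT arrays 2 and 3, and -0.91, -0.71 and -1.34 on the p45-/- arrays. All 19 had a lower mean in p45-/-. Their median difference was -1.02, or -0.37 without WT array 1 and -1.06 without p45-/- array 1. With limma 0 of the 19 passed, as did 0 of all genes. At an unadjusted p under 0.05 limma had 2 lower, Usp18 and Ddx58, at -1.65 and -0.95, against 3.33% of all genes lower. Irf1, a factor that switches on Psmb9, was at 5.44 on WT array 1 and between 3.33 and 4.001 on the other arrays.

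Antigen presentation genes handle the peptides that the immunoproteasome makes. WT array 1 was the highest for 7 of the 10 tested, and not for Calr, Canx and Erap1. Of 10 tested 9 had a lower mean in p45-/-. The median difference was -0.49, or -0.083 without WT array 1 and -0.53 without p45-/- array 1. Tap1, a peptide transporter subunit, was at 2.62 on WT array 1 and at 0.38 to 1.46 elsewhere, and B2m, the light chain of class I molecules, at 7.24 and at 5.61 to 6.48. Nlrc5, an activator of class I genes, was at -1.56 on that array and between -3.44 and -2.15 elsewhere. Calr and Tapbp, the pair with the smallest p in this list, differed by -0.61 (SE 0.31) and -0.72 (SE 0.40), limma adjusted p = 0.704 for both.

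**Figure D3:**
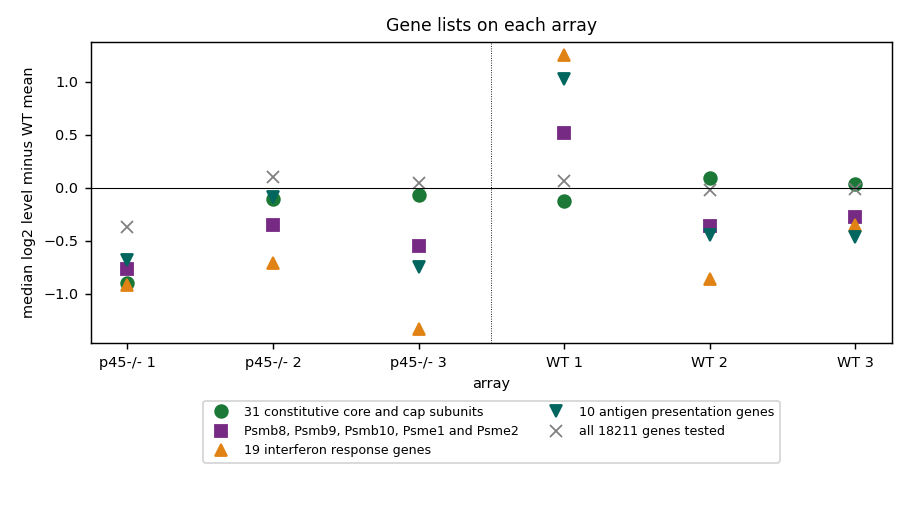
Median log2 level over the mean of the 3 WT arrays for 5 sets of genes on each array, 1 point per set and array. On WT array 1 the interferon response genes stand at 1.25 and the inducible and PA28 genes at 0.51, while the constitutive subunits stand at -0.13, and on p45-/- array 1 the constitutive subunits stand at -0.90.

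Macrophages carry much immunoproteasome, and their markers were detected in these cultures. All 10 macrophage markers tested were above background on every array, with a median over the WT mean of 0.63 on WT array 1 and between -0.53 and 0.24 on the others. Their summed level, in units of the array's 75th percentile, was 416 on WT array 1, 157 and 230 on the other WT arrays and 187 to 270 in p45-/-. Of the lymphoid markers Cd79a, Cd3e, Cd2 and Rag1 were not well above background on all arrays of either group, and the 4 tested summed to 22.2 on WT array 1 and 9.58 to 14.4 elsewhere. Erythroid markers were higher in p45-/- in group mean for 10 of 12, with summed levels of 440 to 2189 in p45-/- and 353 to 837 in WT. Hepatocyte markers were higher for 8 of 8, with 46.8 to 173 in p45-/- and 37.2 to 65.0 in WT. The 14 megakaryocyte markers, 12 of them lower, summed to 958 to 2012 in p45-/- and 1198 to 2191 in WT. All of these sums, those of the macrophage markers included, are set mostly by the brightest genes. The part of these cell types in the proteasome values was not tested.

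Within an array the scaling cancels, so each inducible subunit was set against the constitutive subunit it replaces. As the probes differ, only the change of this log2 distance between arrays has a meaning. Psmb8 minus Psmb5 was 0.089, -1.05 and -0.79 in p45-/- and 0.93, -1.28 and -0.85 in WT. WT array 1 was highest and WT array 2 lowest, so the groups overlapped. The group difference was -0.18 (exact permutation p = 0.9, two-sided, adjusted p = 0.9 over 3 pairs), and it turned to 0.49 without WT array 1 and to 0.055 without p45-/- array 2. Psmb9 minus Psmb6 differed by -0.51 (exact permutation p = 0.5, adjusted p = 0.75) and by -0.050 without WT array 1. Psmb10 minus Psmb7 differed by -0.34 (exact permutation p = 0.3, adjusted p = 0.75) and by -0.081 without it. With 3 arrays against 3 the smallest p possible is 0.1.

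The chaperones that assemble the core included the only members with a higher group mean in p45-/-. Psmg3, of a chaperone pair that guides alpha ring assembly, was at 3.29, 3.996 and 3.87 in p45-/- and at 3.48, 3.56 and 3.36 in WT. Arrays 2 and 3 of p45-/- lay above all WT arrays and array 1 below them. Its difference, 0.25, had an SE of 0.31, a 95% interval of -0.48 to 0.99 and a limma adjusted p of 0.787. It was 0.47 without p45-/- array 1 and 0.55 with quantile normalization, and it turned to -0.26 with median scaling, under which the median of all genes moved to -0.56. Psmg2, which pairs with Psmg1, was at 1.84, 2.65 and 2.59 against 2.09, 2.27 and 2.21, a difference of 0.17 (SE 0.32) that was 0.42 without p45-/- array 1 and turned to -0.35 with median scaling. Psmg4, the partner of Psmg3, went the other way in group mean. It was at 1.17, 1.64 and 1.94 in p45-/- and at 2.01, 2.05 and 2.05 in WT, with no overlap and a difference of -0.45 (SE 0.31, limma adjusted p = 0.704), or -0.24 without p45-/- array 1. Psmg1 differed by -0.30 (SE 0.34), and by -0.056 without that array. Over the 5 core assembly genes the median was -0.30, and -0.056 without that array.

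Pomp, the maturation factor that joins the half-built rings and is then degraded, was at 6.25, 7.04 and 6.88 in p45-/- and at 7.02, 7.03 and 7.06 in WT. Only p45-/- array 1 was far from the WT levels. Its difference, -0.31, had an SE of 0.31, a 95% interval of -1.07 to 0.44 and a limma adjusted p of 0.747. It was -0.077 without p45-/- array 1 and 0.0061 with quantile normalization.

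Of the chaperones of the cap's base, Psmd10 was at -0.26, 0.87 and 0.82 in p45-/- and at 0.90, 0.92 and 0.90 in WT. Its groups did not overlap, by a margin of hundredths on 2 of the p45-/- arrays. The difference of -0.43 (SE 0.38) was -0.063 without p45-/- array 1. Psmd9 was at 0.86, 1.58 and 1.59 against 1.30, 1.55 and 1.29. It differed by -0.039 (SE 0.32), and another probe of the gene by 0.037. Psmd5 differed by -0.25 (SE 0.45). Without p45-/- array 1 these turned to 0.20 for Psmd9 and 0.16 for Psmd5. The median difference over the 3 genes of the cap's chaperones was -0.25, and it turned to 0.16 without p45-/- array 1. The interactor Psmc3ip, a factor of meiotic recombination, was at -0.11, 0.26 and 0.74 against 0.55, 0.74 and 0.72, and differed by -0.37 (SE 0.32), or by -0.17 without p45-/- array 1. Psme3ip1 was at 1.53, 2.54 and 2.34 against 2.50, 2.48 and 2.34, and differed by -0.30 (SE 0.35), which turned to 0.0015 without that array. Its 3 probes ranged from -0.34 to 0.12.

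Since the constitutive subunits moved together on p45-/- array 1, each member was also set against them. The median level of the 31 constitutive core and cap subunits was subtracted on each array, a scaling chosen after seeing the data, under which all genes had a median difference of 0.26. On this scale the groups did not overlap for 3 lower members, 6.12%, against 3.66% of all genes, and for 3 higher members, 6.12%, against 10.4%. The lower ones were Psmd11, Psma6 and Psmb5, and the higher ones Psmg3, Psmg2 and Psmd9. Psmd11 differed by -0.44 (SE 0.22) and Psmg3 by 0.56 (SE 0.22), and 0 members were called, with limma adjusted p of 0.702 for both and 0% of all genes called in either direction.

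**Figure D4:**
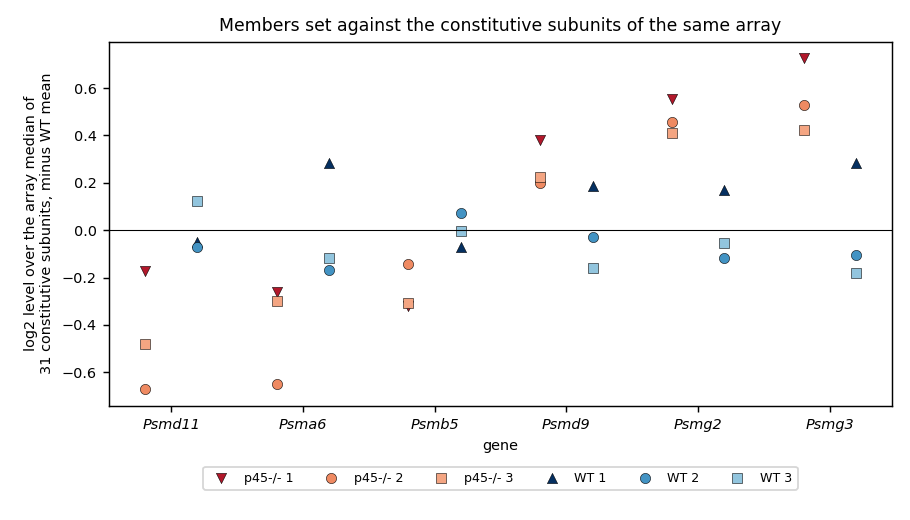
Log2 level of 6 members over the median of 31 constitutive subunits of the same array, minus the gene's WT mean, with p45-/- arrays to the left and WT arrays to the right of each gene's position. Psmd11, Psma6 and Psmb5 lie lower and Psmd9, Psmg2 and Psmg3 higher in p45-/-, with no overlap of the groups. The 6 were picked from these data for that lack of overlap, and the lower ones are themselves among the 31 subunits. All genes had a median difference of 0.26 on this scale, and Psmd9 differed by 0.27.

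Partners and regulators of the proteasome were also mostly lower in group mean. Of 24 listed 22 were tested, 20 with a lower mean in p45-/- (median difference -0.28). Limma called 0, with 1 lower and 0 higher at an unadjusted p under 0.05, against 3.33% of all genes lower and 2.62% higher. Without p45-/- array 1 the median was -0.011 and 11 of 22 were lower. The gene at an unadjusted p under 0.05 was Keap1, which holds the p45 relative Nfe2l2 (Nrf2) for degradation. Keap1 differed by -0.81 (SE 0.30, limma adjusted p = 0.704), or -0.68 without p45-/- array 1. Nfe2l1 was at 2.93, 3.36 and 3.45 in p45-/- and at 3.95, 3.39 and 3.34 in WT, a difference of -0.31 (SE 0.32), or -0.15 without p45-/- array 1. Nfe2l2 differed by -0.89 (SE 0.58), or -0.40 without it, and Ngly1, an enzyme that activates Nfe2l1, by -0.19 (SE 0.57), which turned to 0.38. The ubiquitin receptor Adrm1 differed by -0.10 (SE 0.29), the cap's deubiquitinase Usp14 by 0.086 (SE 0.32) and the proteasome inhibitor Psmf1 by 0.0059 (SE 0.41). These 3 differences became 0.063, 0.31 and 0.36 without p45-/- array 1. Of 22 genes of ubiquitin and its transfer 19 were lower, with a median of -0.26, or 12 lower and a median of -0.053 without p45-/- array 1. Of these genes limma called 0, with 0 at an unadjusted p under 0.05, against 3.33% of all genes lower and 2.62% higher. The pair with the smallest p there, the conjugating enzyme Ube2r2 and the ligase Ube4b, differed by -0.51 (SE 0.26) and -0.50 (SE 0.32). Without p45-/- array 1 these differences were -0.47 and -0.31.

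**Figure D5:**
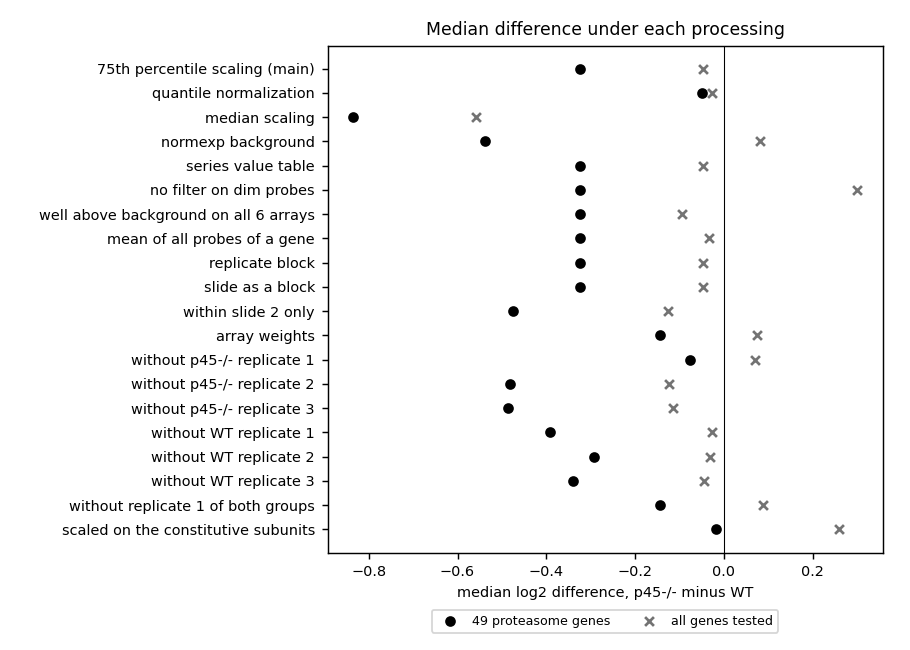
Median log2 difference p45-/- minus WT over the 49 proteasome genes (black points) and over all genes tested (grey crosses) under each processing or set of arrays. The members' median runs from -0.84 with median scaling to -0.050 with quantile normalization. The value of -0.017 when scaled on the constitutive subunits is near 0 by construction, since these are 31 of the 49 genes.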

How the data were processed

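The deposited spot intensities came from Agilent Feature Extraction, in version 10.7.3.1 per the file headers and 10.1 per the submitters' processing notes; its correction settings are not given in the sources used here. Flagged spots (32 to 80 per array) were removed, the processed intensity was averaged per probe, and log2 values were taken relative to the 75th percentile of non-control probes. A probe was used where each array of p45-/- or each array of WT measured it well above background (23958 of 41174). Accessions matched to RefSeq (GRCm38.p6) named 26690 probes, and the brightest probe stood for a gene. The deposited value table held these intensities within 0.497% (column medians 20.9 to 42.0) and was an alternative.

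limma 3.58.1 (R 4.3.3) compared the groups, with 2-sided p adjusted by Benjamini-Hochberg over all genes at 0.05. The fit was tested on simulated data with effects larger than any member's difference, which does not show its power for the members. Pairing was checked by correlating array deviations within each replicate number, which gave 0.647, 0.589 and 0.270, while p45-/- array 3 correlated more with WT array 2, at 0.616. All 3 exceeded the limit of 0.1, and the numbers were treated as pairs on this ground alone, since the labels state no shared litter or day. Deviations from a group's mean sum to 0, so the 3 correlations are not independent. The check therefore cannot establish the pairs of replicates 2 and 3, and the blocked fits and pair counts share this limit. Slide 1 carried replicate 3 of both groups and slide 2 the rest. Values on every array were given by rule for Psmd11, Psma6, Psmb8, Pomp, the extremes of each role group and members with an unadjusted p under 0.05; other named genes were added as context after their values were seen. The members and lists were chosen with earlier results of these data known. The mean spot signal is not a column of the files, so normexp (offset 50) used the median spot signal. The number of arrays limits the precision. The limma p-values of the main fit set a difference against the spread between arrays within groups, moderated over all genes. Each culture had 1 array, so the spread between cultures and the spread between arrays cannot be separated.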

Additional observations from a re-analysis of the deposited data

How the results depend on the processing

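No proteasome gene was called under any of the alternatives except Psmd11 with array weights, where 1 member was called lower. The replicate block left the median at -0.32 and the number of members called at 0, with no member's call changed, and it moved the calls over all genes from 0 to 5 lower, Gp6 and Clec1b among them. The members' median was -0.84 with median scaling, with and without the replicate block, -0.54 with normexp, and ran from -0.49 to -0.075 when single arrays were left out. Of the 22 members given on every array, 12 kept their sign under all 21 alternatives. With quantile normalization, with and without the replicate block, differences turned for Pomp (0.0061), Psmc1 (0.24), Psmd9 (0.096), Psmd14 (0.13) and Psmb3 (0.23), and with median scaling, with and without the block, for Psmg3 (-0.26). With array weights they turned for Psmc1 (0.083), Psmd9 (0.25), Psmd14 (0.0076), Psma8 (0.40), Psmb3 (0.078) and Psme3ip1 (0.032), and without replicate 1 of both groups for Psmc1 (0.062), Psmd9 (0.16), Psmd14 (0.031), Psma8 (0.20), Psmb3 (0.018), Psme3ip1 (0.032) and Psmb8 minus Psmb5 (0.15). Scaled on the constitutive subunits, a choice made after seeing the data like the blocked fits of other scalings, they turned for Psme3 (0.085), Psmc1 (0.21), Psmd1 (0.033), Psmd9 (0.27), Psmd14 (0.11), Psma8 (0.15), Psmb3 (0.26) and Psme3ip1 (0.0056). Leaving out single arrays gave ranges of -0.26 to 0.11 for Psmc1, -0.46 to 0.039 for Psmd1, -0.16 to 0.20 for Psmd9, -0.40 to 0.12 for Psmd14, -0.45 to 0.28 for Psma8, -0.14 to 0.050 for Psmb3, -0.50 to 0.0015 for Psme3ip1 and -0.62 to 0.49 for Psmb8 minus Psmb5. A turn here is a change of sign against 0, and the median over all genes moved up in some of the same settings. That median was -0.048 in the main fit, 0.074 with array weights and 0.087 without replicate 1 of both groups. It was 0.069 without p45-/- array 1 and 0.26 when scaled on the constitutive subunits. Some of the turned differences lay below these medians. The cause of these turns was not tested. The summary values not listed here kept their direction and side of the threshold. All 49 members were well above background on every array, and what limited the precision beyond the number of arrays was not tested.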
